A study of Mus musculus with 14 samples.

Results

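The plasma carrier proteins made by hepatocytes are described here by 9 genes, chosen by name: Alb, Afp and Gc of the albumin family, the vitamin A and thyroid hormone carriers Rbp4 and Ttr, and Ambp, Hpx, Azgp1 and Vtn. All 9 were found, out of 17552 genes in the table of hepatic expression. The livers came from male Apoe-deficient mice on a C57BL/6 background, which lack apolipoprotein E. By the labels the mice were 8 weeks old and were fed for 8 weeks, a feeding time that differs from the one in the methods of the paper. The control group received a Western diet, and the erythrodiol group the same diet with 10 mg/kg of erythrodiol, a triterpene of the olive. Each group was sequenced as 7 libraries, each from liver RNA pooled from a few mice, so Apoe deficiency and the Western diet are common to both.

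The liver supplies most of the proteins of blood plasma, and many of these carry cargo that is poorly soluble or toxic when free. Hepatocytes make them on the rough endoplasmic reticulum and secrete them continuously, so that their mRNAs are among the most abundant of the organ. Albumin carries fatty acids and bilirubin, and alpha-fetoprotein takes its place before birth and is shut down afterwards. In bulk liver, fewer cells of a type and less RNA per cell cannot be told apart.

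Gene expression was available as 1 expected count per gene and group, the sum over the 7 libraries. These sums came to 122889032 in the control and 124686047 in the erythrodiol group. The libraries held between 34856340 and 55244294 clean reads in the control and between 47669656 and 48058606 in the erythrodiol group, and single control libraries gave from 9.12% to 17.3% of all control read pairs mapped to genes. With 1 value per group there is no replicate error and no test for any gene, and the spread between mice is not known. The intervals given are exact at 95% and cover counting error only. Apoe itself, the gene targeted in both groups, was counted 9403 times in control and 8293 times in erythrodiol libraries, and the count says nothing of where in the gene these reads lie. The 10 hepatocyte markers examined, Asgr1 and Hnf4a among them, all had at least 100 counts, and together they held 3912155 and 4352044 counts.

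Gc, Alb and Afp descend from a common ancestral gene and lie on chromosome 5 of GRCm38, Gc from 89417511 to 89457898, Alb from 90460870 to 90476602 and Afp from 90490714 to 90508907. Their upstream sequences are shown because the 3 genes are relatives and neighbours with very different levels. Each sequence is the 150 bases before the start of the gene in RefSeq (GRCm38.p6), read 5′ to 3′ along the gene, and capitals mark GTTAATNAT, the opening letters of the consensus site of HNF1, a hepatocyte transcription factor.
Alb, chr5:90460720-90460869, plus strand: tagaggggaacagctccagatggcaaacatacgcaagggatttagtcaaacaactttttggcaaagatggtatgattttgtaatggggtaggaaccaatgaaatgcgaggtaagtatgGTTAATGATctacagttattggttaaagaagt
Afp, chr5:90490564-90490713, plus strand: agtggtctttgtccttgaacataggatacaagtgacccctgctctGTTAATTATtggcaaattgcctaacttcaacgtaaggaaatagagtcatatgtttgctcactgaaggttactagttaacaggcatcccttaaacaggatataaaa
Gc, chr5:89457899-89458048, minus strand: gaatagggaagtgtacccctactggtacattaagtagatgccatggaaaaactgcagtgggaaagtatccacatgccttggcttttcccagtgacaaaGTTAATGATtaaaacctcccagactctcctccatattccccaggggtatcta

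The letters began 32 bases before the start of Alb, 105 before that of Afp and 52 before that of Gc. RefSeq gave upstream sequence for 8 of the 9 genes, in 9 windows since Rbp4 has 2 starts. Searched on both strands over 250 bases, GTTAATNAT was found in 3 of the 8, namely these relatives, against 0.737% of 32851 windows of the same length over all genes. The letters were chosen after the sequences had been seen. TATAAA was found for 3 of the 8 genes (Afp, Vtn and Rbp4) and in 12.4% of all windows. On the gene strand it began 7 bases before the start of Afp, 135 before that of Vtn and 28 before 1 start of Rbp4. These distances are from the RefSeq starts, which were not checked against where transcription begins. CCAAT, which overlaps the GTTAATNAT match in Afp by its reverse, was found for 7 of the 8 and in 33.8%. A match is a description of letters and not of binding, and Afp, at a far lower level than Alb, holds a match as well, with another base at N and farther from its start.

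Per length, Alb was the most abundant gene of the liver in both groups. Its level was 63753 in the control and 68184 with erythrodiol, in counts per kilobase per 1000000 of the sum of such values over all genes. Gm21320, a gene model whose count is not whole, so that its reads were divided with similar transcripts, came next, with a mean level of 35539. Alb alone took 8.06% of all gene counts in the control (8.05 to 8.06) and 7.75% with erythrodiol (7.75 to 7.76). The 9 genes together took 10.8% and 10.4%, and the 8 genes without Alb 2.78% and 2.62%. In counts without regard to length, Alb ranked 1 in both groups, Gc 13 and 12, Hpx 12 and 26, and Ttr 25 and 19.

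Afp stood at the other end, with a level per length of 0.993 in the control and 0.955 with erythrodiol. The level of Alb was 64171 times that of Afp in the control and 71413 times with erythrodiol. Yet the 2 genes are next to each other and of nearly equal length, 2076 and 2086 bases. Afp had 155 and 136 counts and a ratio interval that included 1, so no group difference is read from these multiples. The remaining 7 genes lay between 1859 and 8497 in the control and between 1750 and 8470 with erythrodiol. In the control their order per length was Hpx, Ttr, Gc, Rbp4, Ambp, Azgp1 and Vtn. With erythrodiol it was Ttr, Gc, Hpx, Rbp4, Ambp, Vtn and Azgp1, so that Hpx moved from the top of these genes to behind Gc, and Azgp1 and Vtn changed places. Without values per library it cannot be said which neighbours in these orders differ beyond the spread between mice. The genes closest to Ttr and Hpx in mean level per length were Ahsg, which makes fetuin-A, just above Ttr, and the cytochrome Cyp2e1 just below Hpx, with Ttr and Hpx next to each other between them.

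**Figure D1:**
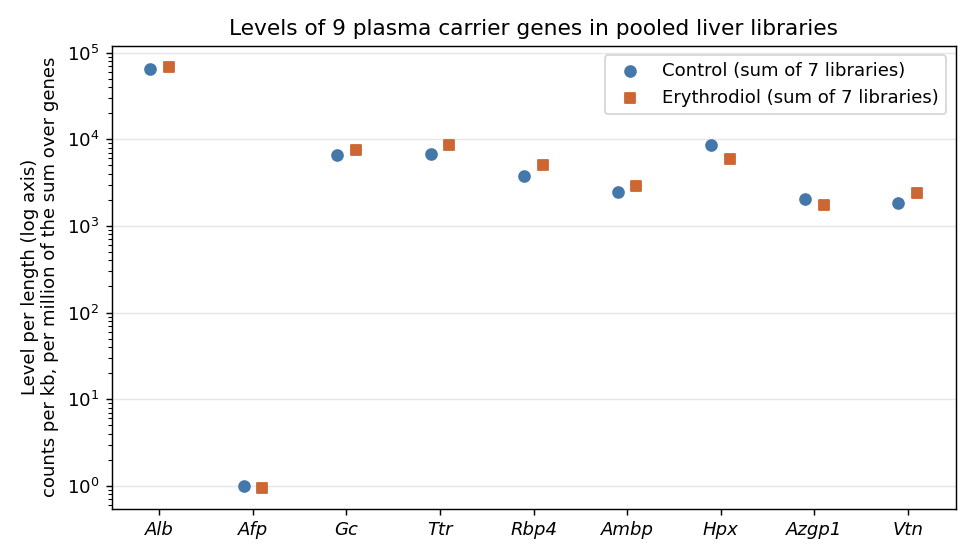
Level per length (log axis, counts per kilobase per 1000000 of the sum over all genes) of the 9 genes in the control (circles) and erythrodiol (squares) sums, 1 value per gene and group with no error bar. Alb stands at 63753 and 68184, Afp near 1, and the other 7 genes between 1750 and 8497.

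To see how erythrodiol and control differed, each sum was divided by the total of its group. By this ratio 5 of the 9 genes were higher and 4 lower with erythrodiol, from 0.626 for Hpx to 1.22 for Rbp4, with a median log2 ratio of 0.02. Of 13291 genes with at least 100 counts in both groups together, 71.2% were higher and 28.8% lower, and their median log2 ratio was 0.16. The 5 of 9 is a smaller share, which with 9 genes is not read as a difference from all genes. A difference of at least 1.5-fold, a rule of size and not a test, was seen for 1 of the 9, Hpx, and for 5.69% of all genes. Hpx was on the lower side, with 3.14% of all genes, and 0 of the 9 were on the higher side, with 2.55%. At 1.2-fold the number was 3 of 9 beside 45.1% of all genes, and at 2-fold 0 of 9 beside 0.767%. Every gene in the list but Afp had a counting interval that left out 1.

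Transcript length bears on these ratios, because with genes in 5 length classes of equal size the median log2 ratio went from -0.06 in the shortest, up to 1640 bases, to 0.30 in the longest, from 4673 bases. The 9 genes are short, with 5 in the shortest and 4 in the next class. Each was therefore also set against the 500 genes nearest to it in length. On that scale 4 were higher and 5 lower, beside 49.9% higher over all genes, with a median of -0.06, and 4 of the 9 lay within the middle 50% of the genes of like length.

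**Figure D2:**
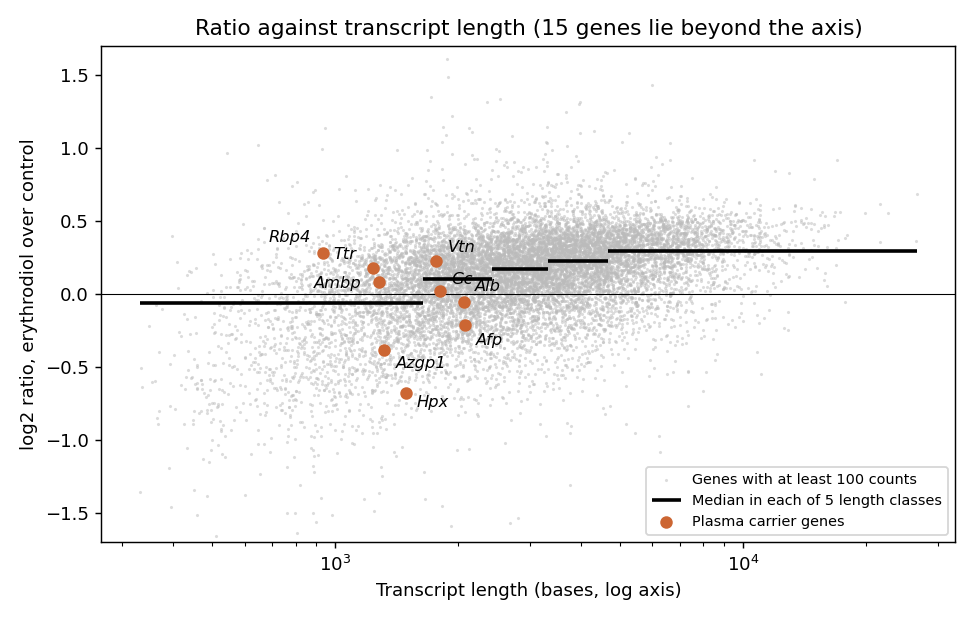
Log2 ratio of the erythrodiol to the control sum, scaled by column totals, against transcript length in bases (log axis) for genes with at least 100 counts (grey), with the median of each of 5 length classes (lines) and the 9 genes (orange). The medians go from -0.06 in the shortest to 0.30 in the longest class, and Hpx and Azgp1 lie below, Rbp4 above, the median of their class.

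Hemopexin, the product of Hpx, binds free heme with very high affinity and brings it to the liver. Hpx (chromosome 7, 105591611 to 105600116) was counted 946243 times in control and 601396 times in erythrodiol libraries, or 7700 and 4823 counts per 1000000. The ratio was 0.626 (0.624 to 0.628), 1.60-fold lower with erythrodiol. Of the 500 genes of like length, from 1410 to 1572 bases, 9 had a lower ratio than Hpx and 491 a higher one, and relative to their median its log2 ratio was -0.71, where 3.53% of all genes were at least 1.5-fold lower. Among the 138 genes with at least 200000 counts in both groups together, whose median log2 ratio was 0.08, 11 were lower than Hpx and 16 were at least 1.5-fold lower. Of the 11, 10 are named as major urinary proteins and the other is Gm21320. The control counts of these 11 are not whole, so their reads were divided with similar transcripts, and they are not 11 separate measurements. Hpx was lower under each of 14 scalings examined, with log2 ratios between -0.84 and -0.52, and past 1.5-fold in 12 of them. All 14 rescale the same 2 sums, so they say nothing of the spread between mice.

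Azgp1 encodes zinc-alpha-2-glycoprotein, a secreted protein with the fold of an MHC class I molecule that has been tied to fat mobilization. Azgp1 (chromosome 5, 137981521 to 137990233) was counted 202232 times in control and 157153 times in erythrodiol libraries. Its ratio was 0.766 (0.761 to 0.771), and 86 of the 500 genes of like length were lower still. On the log2 scale it was -0.38 by column totals and -0.37 relative to genes of like length, and between -0.55 and -0.23 under the 14 scalings. Hpx and Azgp1 were the 2 genes below the middle 50% of genes of like length apart from Afp, whose counts were few.

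Rbp4 carries retinol from the liver stores to the tissues, and in plasma it travels bound to transthyretin, the product of Ttr, which also carries thyroxine. Rbp4 (chromosome 19, 38116620 to 38125321) was counted 260219 times in control and 320954 times in erythrodiol libraries, a ratio of 1.22 (1.21 to 1.22). It is the shortest of the 9, at 934 bases, and 36 of the 500 genes nearest in length, whose median log2 ratio was -0.14, were higher. Relative to these genes its log2 ratio was 0.42, a 1.34-fold difference. Ttr, on chromosome 18, had 621873 and 715407 counts, a ratio of 1.13 (1.13 to 1.14). Set against genes of its length, Ttr had a log2 ratio of 0.19, with 114 of 500 higher. Both genes of the retinol complex were thus above the control, and per length Ttr stood at 1.80 times the level of Rbp4 in the control and at 1.68 times with erythrodiol. The log2 ratios of both were above 0 under the 14 scalings, between 0.12 and 0.63 for Rbp4 and between 0.02 and 0.33 for Ttr, where the lowest values are those relative to the median of all genes.

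Vitronectin, from Vtn, is an adhesive glycoprotein that binds integrins. Vtn (chromosome 11, 78499120 to 78502325) was counted 245071 times in control and 290998 times in erythrodiol libraries, a ratio of 1.17 (1.16 to 1.18). Its log2 ratio of 0.23 was within the middle 50% of genes of like length, and 0.16 above their median. Relative to the median of all genes it was 0.06.

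Ambp encodes a precursor that is cut into alpha-1-microglobulin, a relative of Rbp4 in the lipocalin family, and bikunin, a protease inhibitor. Ambp (chromosome 4, 63143275 to 63154172) was counted 237612 times in control and 254748 times in erythrodiol libraries, a ratio of 1.06 (1.05 to 1.06). Its log2 ratio was 0.08, 0.10 relative to genes of like length and -0.08 relative to the median of all genes, and below 0 in 2 of the 14 scalings, so that its direction depends on the scaling.

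Among the albumin family, Alb was counted 9898794 times in control and 9665610 times in erythrodiol libraries, a ratio of 0.962 (0.962 to 0.963) or a log2 ratio of -0.06. Relative to genes of like length Alb was at -0.16, but per length over the sum of counts per length it was at 0.10, and so higher, as it also was relative to the reference genes. Gc, whose product carries vitamin D metabolites and binds actin, had 901266 and 926854 counts, a ratio of 1.01 (1.01 to 1.02). Its log2 ratio was 0.02 by column totals and -0.06 relative to genes of like length, and below 0 in 9 of the 14 scalings. Afp was counted 155 times in control and 136 times in erythrodiol libraries, summed over 7 libraries in each case. The ratio was 0.865, and its interval, from 0.682 to 1.10, included 1, so that a difference in Afp was not detectable at this depth.

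**Figure D3:**
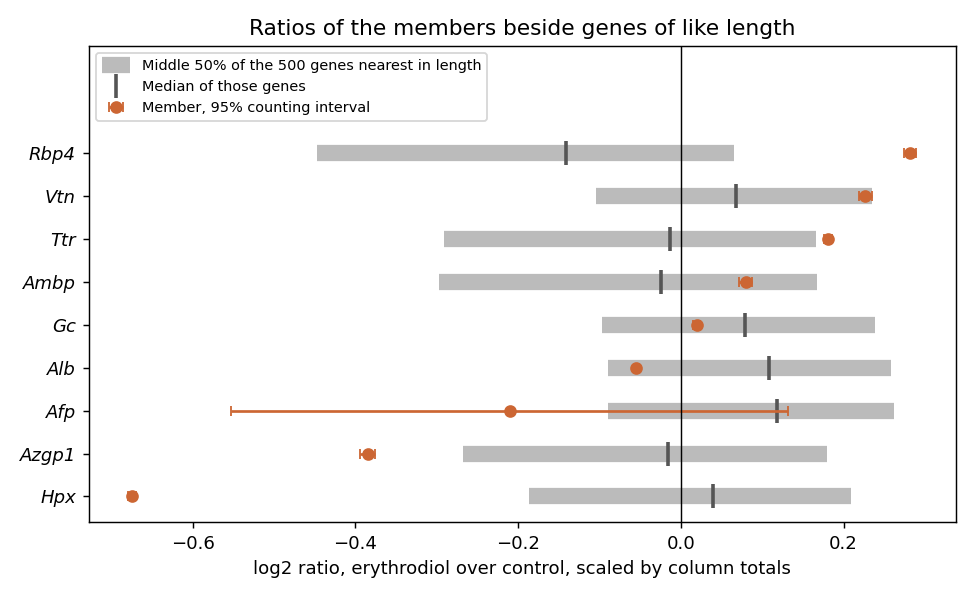
Log2 ratio of the erythrodiol to the control sum, scaled by column totals, for each gene (points, with 95% counting intervals), beside the middle 50% (grey bars) and median (ticks) of the 500 genes nearest in length. Hpx at -0.67 and Azgp1 at -0.38 lie left of their bars, Rbp4 at 0.28 and Ttr at 0.18 right of them, and the wide interval is that of Afp.

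**Figure D4:**
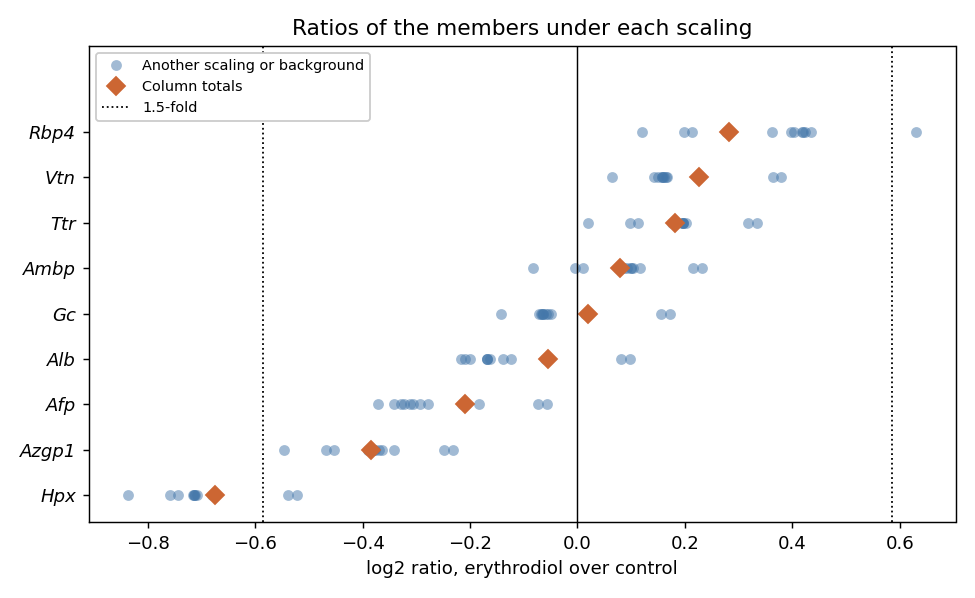
Log2 ratio of each gene by column totals (diamonds) and under each of 13 other scalings or backgrounds (circles), with dotted lines at 1.5-fold. Hpx, Azgp1 and Afp stay left of 0 and Rbp4, Vtn and Ttr right of it, while Alb, Gc and Ambp have values on both sides. Afp rests on 155 and 136 counts, and its counting interval by column totals includes 0.

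Transcripts absent from the reference had been assembled by the authors over all libraries. Such a coding transcript was listed for 3 of the 9 genes, Ambp, Rbp4 and Ttr, with 1 each, and for 28.5% of the genes in the expression table. The one of Ambp runs from 63143275 to 63154836 on the minus strand of chromosome 4, with 11 exons. Of these, 10 are in GENCODE, and the first, from 63154659 to 63154836, extends upstream of a GENCODE exon that spans 63154659 to 63154799. The RefSeq gene begins downstream of both, at 63154172. That of Rbp4 has 6 exons from 38116620 to 38124811, of which 3 are in GENCODE, and it differs at its first 2 exons and its last. For Ttr, 2 of its 5 exons are in GENCODE. These models carry no count, so that they cannot be compared between the groups, and the gene counts pool all isoforms.

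Of 17 other plasma carriers, all with at least 100 counts, 10 were higher and 7 lower with erythrodiol, beside 71.2% higher over all genes, with a median log2 ratio of 0.18, beside 0.16 over all genes and 0.02 for the 9. Relative to genes of like length 9 were higher and 8 lower, with a median of 0.05. The most abundant were Trf, the iron carrier transferrin, with 1505734 and 1732206 counts (log2 ratio 0.18), Ahsg with 799053 and 961016 (0.25) and Serpina3k with 845128 and 678910 (-0.34). Serpina3k is a serpin protease inhibitor that was counted in this list. At least 1.5-fold lower were 3 of the 17, beside 3.14% of all genes, and 0 were at least 1.5-fold higher, beside 2.55%. The 3 were Orm1 with a log2 ratio of -0.70, Orm2 with -0.84 and Orm3 with -0.91, which encode orosomucoids, acute phase carriers of lipophilic drugs. The counts of Orm1, Orm2 and Serpina3k, rounded here for Serpina3k, are not whole, so reads were divided between similar transcripts and these values are uncertain. Hp, whose haptoglobin binds free hemoglobin as hemopexin binds heme, had 462244 and 348233 counts, a log2 ratio of -0.43. The thyroxine-binding Serpina7 was at -0.49, unlike Ttr, and the corticosteroid-binding Serpina6 at 0.56. Afm, the vitamin E carrier and further relative of Alb, had 24185 and 29499 counts, a log2 ratio of 0.27. Hp, Serpina7, Serpina6 and Afm were singled out after their values were seen.

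Genes that receive or process the cargo of these carriers, or bind to them, were 31 of 33 in the table, and 28 had at least 100 counts. Of these 18 were higher and 10 lower by column totals, beside 71.2% higher over all genes, with a median log2 ratio of 0.07. Relative to genes of like length 9 were higher and 19 lower, beside 49.9% higher over all genes, with a median of -0.06. The most abundant were Itih4 at 0.20, Itih2 at 0.32 and the immunoglobulin receptor Pigr at 0.30. Beside genes near them in length these were at 0.02, 0.14 and 0.07. Itih2 is a heavy chain of the inhibitor family whose light chain is bikunin. Itih4 is named in the same family, and whether its product joins bikunin was not examined. Past 1.5-fold was 1 of the 28, beside 5.69% of all genes. It was Rdh11, a retinol dehydrogenase, with 1690 and 2629 counts, a log2 ratio of 0.62, or 0.57 relative to genes of like length. On the side of heme, the heme oxygenase Hmox1 had 7572 and 7685 counts, a log2 ratio of 0.00 by column totals and -0.06 relative to genes of like length. The hemopexin receptor Lrp1 was at 0.33 and -0.02 on these scales, and the biliverdin reductases were at -0.39 and -0.38 for Blvra and at -0.22 and -0.01 for Blvrb. Heme genes were chosen after the value of Hpx was seen.

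Transcription factors of hepatocytes and repressors of Afp numbered 22 in the table, 20 higher and 2 lower by column totals, beside 71.2% higher over all genes, with a median log2 ratio of 0.40, beside 0.16. Relative to genes of like length 18 were higher and 4 lower (Hnf4a, Foxa3, Cebpa and Nfib), beside 49.9% higher over all genes, with a median of 0.18. The most abundant, Hnf4a, Cebpa and Rxra, have longer transcripts than any of the 9 carriers. Relative to genes of like length Hnf4a was at -0.04, Cebpa at -0.27 and Rxra at 0.10, against 0.21, -0.11 and 0.35 by column totals. Past 1.5-fold were 2 of the 22, beside 5.69% of all genes, namely Onecut1 at 1.04 and Zbtb20, a repressor of Afp after birth, at 0.68. Relative to genes of like length these were at 0.96 and 0.33. Zhx2, a further repressor of Afp, was at 0.45 by column totals and 0.19 relative to genes of like length. Genes of the fetal liver were 9 of 12 in the table, and 7 had at least 100 counts. Of these 2 were higher and 5 lower, beside 71.2% higher over all genes, with a median of -0.06. Relative to genes of like length 1 was higher and 6 lower, beside 49.9% higher over all genes, with a median of -0.17. The most abundant, Elovl3, Lpl and Plac8, were at -0.05, 0.13 and -0.98. Elovl3 had 18903 and 18515 counts in these livers, so the list also holds genes expressed well after birth. Past 1.5-fold were Igf2bp3 at 1.10 (50 and 109 counts), Cd24a at -0.70 and Plac8, beside 5.69% of all genes. Which cells of the liver gave the counts of Cd24a and Plac8 was not tested. Gpc3, which shares with Afp the control by Zhx2, had 263 and 256 counts, a log2 ratio of -0.06. Zhx2 and Gpc3 were singled out after their values were seen.

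**Figure D5:**
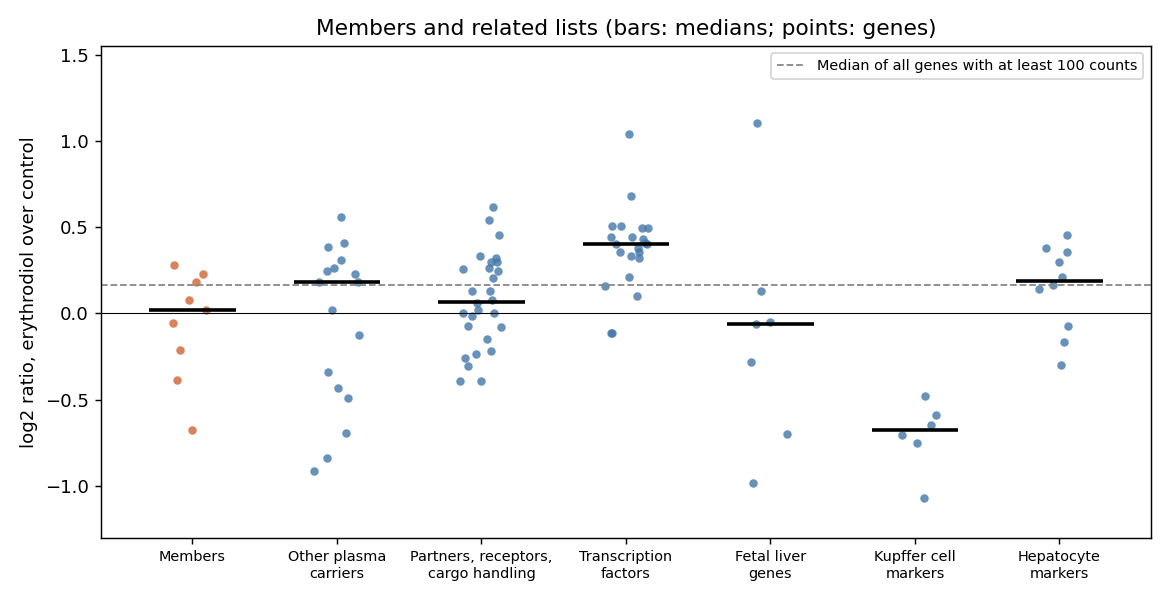
Log2 ratio of the erythrodiol to the control sum, scaled by column totals, for the 9 genes and 6 lists (points are genes with at least 100 counts, bars are medians, and the dashed line is the median over all genes, 0.16). The 9 have a median of 0.02, the transcription factors 0.40 and the Kupffer cell markers -0.67.

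Markers of other liver cells differed between the groups as well. All 6 Kupffer cell markers were lower with erythrodiol, beside 28.8% lower over all genes, with log2 ratios between -1.07 and -0.48. Their summed counts were 106836 (control) and 66670 (erythrodiol), a ratio of these sums of 0.615, with 0 of the 6 at 0 counts. The ratio of Hpx, a hepatocyte gene with 946243 control counts, was 0.626, and a link to these markers was not tested. Cd5l, the most abundant of the 6, had 65371 and 40760 counts. The 5 bile duct markers were lower too, beside the same 28.8%, between -0.89 and -0.09, with 14309 and 9857 counts in sum. The 5 stellate cell markers had a median log2 ratio of 0.00, the 5 sinusoidal endothelial markers one of 0.07 and the 10 hepatocyte markers one of 0.19, from -0.30 to 0.45. Set against genes of their length, the 5 stellate and the 5 sinusoidal endothelial markers were all lower, beside 49.9% higher over all genes. Their medians were -0.16 and -0.17, and the hepatocyte markers had a median of 0.16. The remaining lists had few counts. Of the 5 lymphocyte markers, with 714 and 741 counts in sum, 4 were higher, beside 71.2% higher over all genes. The neutrophil markers had 1199 and 564 counts, a summed ratio of 0.464, the adipocyte markers 451 and 193, and the pancreatic acinar markers 249 and 186. The skeletal muscle markers had 33 and 3. The muscle genes Ttn and Ckm, at 27 and 3 counts in the control, were the markers in the table listed at 0 with erythrodiol. The part of these cells in the values of the carriers was not tested.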

How the data were processed

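Read pairs were obtained by the authors on a BGISEQ-500 instrument from 7 control and 7 erythrodiol pools of liver RNA. Groups were taken from the labels. The authors mapped clean reads with Bowtie2 to reference and newly assembled coding transcripts and counted them with RSEM. The authors deposited expected counts per gene as 1 sum per group, with a transcript length, beside a log2 ratio, p-value and q-value of their own comparison, which were not used. For each library the authors deposited the count of clean reads and the percent mapped to genes. Versions of these tools were not given in the sources used here, and coordinates are those of GRCm38.

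Sums were divided by column totals, with Clopper-Pearson intervals on rounded counts, and set against the 500 genes nearest in length among those with at least 100 counts. The design allowed for gene values per library, and none were at hand, so no test was made. Members and lists were chosen with earlier results of these data known. All 9 members are named, and in each of 4 further lists (other carriers, partners, transcription factors and fetal liver genes) the 3 genes of most counts and those past 1.5-fold with at least 100 counts. Cell markers are given as lists. The genes next to the 3 most abundant members in mean level, and Apoe, Ppib and Tbp, were also named by rule. A gene of the list of binding partners is not reported here and was left out of its counts. The computation was tested on simulated data. Scripts ran under Python 3.11.15 with scipy 1.17.1, pandas 2.3.3 and numpy 2.4.6, and figures were drawn with matplotlib 3.10.9. Alternatives were other scalings, other numbers of genes of like length, minimums of 10 counts or none, a pseudocount of 1 and fold limits of 1.2 and 2. Files of SNPs and splicing events were not used here.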

Additional observations from a re-analysis of the deposited data

Results flagged for a closer look

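Control replicate 3 had 64.3% of its clean reads mapped to genes, the lowest of the control libraries, and its gap to the others was large for a group of 7. Chance flags about 1 in 20 groups in this way. This library gave 9.12% of all control read pairs mapped to genes. Its share in the counts of Hpx, Azgp1, Rbp4 or any other carrier is not known from the sums.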

How the results depend on the processing

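The median log2 ratio of the 9 genes was 0.02 by column totals and the same with a pseudocount of 1. It was -0.14 relative to the median of all genes, -0.065 without the 20 genes of most counts and 0.16 relative to the reference genes Ppib and Tbp. Relative to the 500, 200 and 1000 genes of nearest length it was -0.059, -0.065 and -0.072, relative to the 100 of these nearest in count -0.054, and with a minimum of 10 counts or none in that background -0.068 and -0.063. Chosen after seeing the data, totals without Alb gave 0.015, totals without the Mup genes, which took 9.87% and 5.46% of counts, -0.050, and levels per length 0.17. The number of higher genes, 5 by column totals, was 3 relative to the median of all genes and without the 20 genes of most counts, 4 beside genes of like length, and 6 relative to Ppib and Tbp and per length. The number past 1.5-fold was 1 by column totals, 0 relative to Ppib and Tbp and per length, where Hpx was at -0.54 and -0.52, and 2 beside genes near in length and count, where Rbp4 joined Hpx at 0.63. It was 3 at 1.2-fold and 0 at 2-fold. Ppib and Tbp themselves were at -0.59 and 0.31. No paired analysis was possible because the columns of gene counts hold 1 sum per group and carry no replicate number. For the same reason no library could be left out.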
